A study of Mus musculus with 6 samples.

Results

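The replication-dependent histone genes supply the histones that package newly copied DNA. Here 70 genes with their symbols were followed in mouse embryonic stem cells (mESCs) that could or could not lose RNA polymerase II (Pol II). They were taken by symbol: every gene whose symbol begins with Hist1h, Hist2h, Hist3h or Hist4h in the deposited count tables, 70 of 39017 genes. By symbol the set holds 6 genes for the linker histone H1, 20 for H2A, 19 for H2B, 12 for H3 and 13 for H4. These include Hist1h2aj and Hist1h2al in H2A and Hist3h2bb-ps in H2B, which are annotated as pseudogenes.

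PolyA RNA-Seq was analysed in 6 libraries, 2 for each of 3 groups. Untreated and auxin-treated libraries came from a homozygous V6.5 clone in which RPB1, the largest Pol II subunit (gene Polr2a), carries a C-terminal mAID-GFP tag, and in which the plant F-box protein OsTIR1 is made from the Rosa26 locus on addition of doxycycline. Both groups received 1 μg/ml doxycycline for 12 h, and the auxin 6 h group then received 500 μM of the auxin indole-3-acetic acid for 6 h, which leads to degradation of RPB1. The wild-type libraries came from the parental V6.5 line without the tag, and whether they received doxycycline was not stated in the sources used here. All cells were grown on irradiated mouse embryonic fibroblasts, and the tagged cells are 1 clone that was chosen for efficient degradation. The labels do not say whether the 2 libraries of a group came from separate cultures, so p-values measure only the spread between these libraries. The untreated libraries served as the reference in both comparisons, so the comparisons share them.

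Replication-dependent histone mRNAs are made in S phase and differ from other mRNAs at their 3′ end, where a short stem-loop bound by SLBP stands in place of a polyA tail. The cut downstream of the stem-loop is made by a complex that contains the U7 snRNP. Selection on polyA therefore passes over most of these mRNAs and keeps transcripts that run past the stem-loop to a polyA site, transcripts that were given a tail, or RNA carried along. Transcription of the genes is driven by NPAT at histone locus bodies, with HINFP acting at H4 promoters.

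The stem-loop is printed for members on which the results below turn, because it sets what a polyA library can hold. The consensus of the stem-loop, 16 bases whose letters are those of Hist1h2ao and Hist1h4d below with any base at the position of each in which these differ, was searched on the sense strand of the GENCODE M21 transcripts. With up to 2 mismatches it was found in 46 of 69 members with an annotation, and without a mismatch in 33 (47.8%). Of 21885 other protein-coding genes, 2 (0.00914%) held it without a mismatch: H2bfm, itself an H2B family gene, and Trim17, whose exons overlap those of Hist3h2a. Capitals mark the 16 bases of the stem-loop, and the flanking bases are in lower case.
Hist1h2ao: aaaaaaaGGCTCTTTTCAGAGCCatccaca
Hist1h2ap: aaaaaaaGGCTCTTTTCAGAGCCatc
Hist1h2ad: aaacaaaGGCTCTTTTCAGAGCCatccact
Hist1h2ae: aaacaaaGGCTCTTTTCAGAGCCattcact
Hist3h2ba: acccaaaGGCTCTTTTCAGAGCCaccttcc
Hist1h1c: tccaaaaGGCTCTTTTCAGAGCCaccactc
Hist1h3c: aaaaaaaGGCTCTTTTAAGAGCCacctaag
Hist1h4d: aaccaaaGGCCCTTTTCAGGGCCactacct
Hist1h4i: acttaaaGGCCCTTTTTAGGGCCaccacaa
Hist2h4: ccctaacGGCCCTTTTTAGGGCCaaccaca
The form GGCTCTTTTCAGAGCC stood in 26 members and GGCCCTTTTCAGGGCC in 7. The forms with 1 mismatch included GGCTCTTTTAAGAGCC in 6 members and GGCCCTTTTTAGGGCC in 2, the H4 genes Hist1h4i and Hist2h4.

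The annotated transcripts differ in how far they run past the stem-loop. In 23 members the annotated transcript goes on for more than 100 bases, in 23 it ends within 100 bases, and in 23 no match was found, 11 of these having only a coding sequence annotated. Of the 23 that go on, 14 hold AATAAA, the polyA signal, after the stem-loop. The transcript of Hist1h2ao stops 31 bases after the stem-loop and that of Hist1h2ap 3 bases after it, whereas those of Hist1h4i, Hist1h1c and Hist2h4 go on for 330, 840 and 1257 bases. The mean level per kb of exon over the 6 libraries, in counts per 1000000 counts of the library (CPM), had a median of 0.339 CPM per kb in members that go on, 0.914 in members that end near the stem-loop and 0.612 in the rest. A level per kb depends on the annotated length, which is longer where the transcript goes on. Without division by length, the median count summed over the 6 libraries was 36, 34 and 23 in the same order.

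By symbol the genes belong to 4 loci. On mm10, 56 members are on chromosome 13 (Hist1), 9 on chromosome 3 (Hist2), 3 on chromosome 11 (Hist3) and 1, Hist4h4, on chromosome 6, while Hist2h2bb had no matching entry in the annotation used. Of the 69 annotated members, 64 have a single exon block. Copies within a class resemble each other, and the share of a member's 100-base transcript stretches that also occur in another gene had a median of 34.3% over all members, 69.9% in H2A, 49.8% in H3, 32.0% in H2B, 19.0% in H4 and 0.4% in H1. How reads that match several copies were counted is not stated in the sources used here, so counts of members that share sequence are uncertain as to which copy they belong to.

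Histone genes took a very small part of each library. Library totals lay between 14094022 and 15358714 counts. The 70 members together held 849 and 886 counts in the untreated libraries, 889 and 805 in the auxin 6 h libraries, and 1498 and 1473 in the wild-type libraries. As a share of the library this was 0.00602% (95% Wilson interval 0.00563 to 0.00644) and 0.00606% (0.00567 to 0.00647) untreated, 0.00579% (0.00542 to 0.00618) and 0.00531% (0.00496 to 0.00569) with auxin, and 0.0101% (0.00964 to 0.0107) and 0.0099% (0.00941 to 0.0104) in wild type, where the intervals cover counting error only. The untreated and auxin intervals overlapped, and both wild-type libraries lay above them. A single H2A gene, Hist1h2ao, made up 54.1% and 58% of the wild-type histone counts, and without it the wild-type libraries held 688 and 618 counts, fewer than the 845 and 879 of the untreated libraries.

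Of the 70 members, 65 had at least 1 count in some library, 15 never exceeded 3 counts, and 10 had at least 10 counts in all 6 libraries. The 5 members at 0 in all libraries were the H2A genes Hist2h2aa1 and Hist2h2aa2, the H3 genes Hist2h3b and Hist2h3c1, and the H4 gene Hist1h4b. A count of 0 allows up to 3 counts, or 0.195 to 0.213 CPM depending on the library. All 5 overlap an exon of another gene in the count table, as do 5 of the 65 members with counts, and reads in such overlaps may be left uncounted. The share of 100-base stretches found in another gene, overlapping genes included, was 100% for Hist2h2aa1, Hist2h2aa2, Hist2h3b and Hist2h3c1. It was 71.8% for Hist1h4b. Reads that match several genes may also be left uncounted, and neither possibility was tested.

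Per kb of exon, the highest levels in the untreated cells among the leading members of each class were 12.9 CPM per kb for Hist1h4i, 5.96 for the H3 gene Hist1h3c, 5.63 for the H2A gene Hist1h2ae, 5.15 for the H2B gene Hist3h2ba and 4.67 for the H1 gene Hist1h1c. These levels were far under those of 3 variant histone genes, a group in which most mRNAs carry a polyA tail. H3f3b, a gene for the replacement histone H3.3, stood at 260.4 CPM per kb, H2afz at 201 and H2afx at 124.6 in the same libraries.

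**Figure D1:**
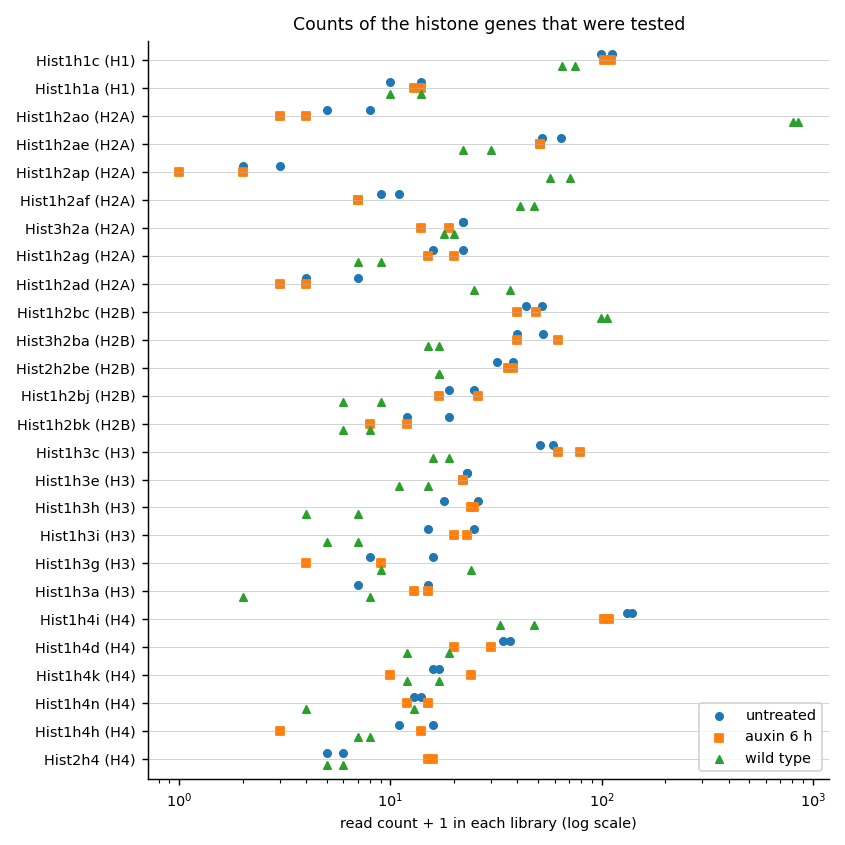
Read count plus 1 in each of the 6 libraries (log scale) for the 26 histone genes tested in at least 1 comparison, with circles for untreated, squares for auxin 6 h and triangles for wild type. Hist1h2ao reached 810 and 855 counts in the wild-type libraries against 2 to 7 in the other 4, whereas 12 members were called lower in wild type than in untreated cells.

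By class, the sums in CPM ran as follows. H1 genes summed to 10.2 and 8.62 in untreated, 8.59 and 8.45 in auxin 6 h and 5.95 and 6.52 in wild-type libraries. H2A genes summed to 9.86 and 10.7 untreated, 8.66 and 8.58 with auxin, and 70.1 and 71.1 in wild type. H2B genes summed to 13.6 and 14.3 untreated, 13.9 and 13 with auxin, and 12.3 and 11.2 in wild type. The wild-type H1 and H2B sums thus lay below both untreated libraries, and the H2A sum far above them.

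H3 genes summed to 9.51 and 11 untreated, 12.1 and 10.2 with auxin, and 5.08 and 4.64 in wild type. H4 genes summed to 17.1 and 16 untreated, 14.6 and 12.9 with auxin, and 7.92 and 5.58 in wild type. The auxin libraries overlapped the untreated libraries in H2B and H3 and lay below both in H1, H2A and H4, with ratios of the group means of 0.908, 0.839 and 0.83, against 0.965 in H2B and 1.09 in H3. The wild-type means were 0.665 times the untreated mean in H1, 6.87 times in H2A, 0.841 times in H2B, 0.473 times in H3 and 0.408 times in H4. With 2 libraries against 2, an exact two-sided permutation test cannot give a p below 0.333, so the sums were not tested.

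**Figure D2:**
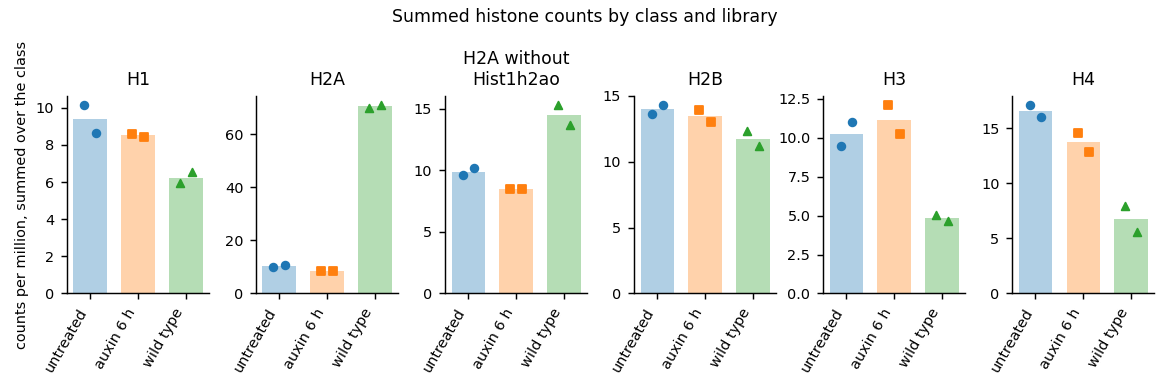
CPM, summed over the members of each class, with 1 point per library and bars for the mean of the 2 libraries; the third panel leaves Hist1h2ao out of the H2A class. Without Hist1h2ao, the H2A sum was 15.3 and 13.6 in wild type against 9.58 and 10.2 in untreated libraries.

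Degradation of Pol II for 6 h came with no called change in any histone gene. Of 21 members with enough counts to be tested, 0 passed an adjusted p of 0.05 in edgeR's quasi-likelihood test, where 4.2% of the 16128 genes tested did (2.56% higher and 1.64% lower with auxin). The log2 fold changes ran from -0.83 to 1.56 with a median of -0.10, against -0.00038 over all genes tested, 7 being above 0 and 14 below. By class, 2 H1, 3 H2A, 5 H2B, 5 H3 and 6 H4 members were tested, with medians of -0.0018, -0.29, -0.14, 0.06 and -0.29. DESeq2 also called 0 of the 45 members to which it gave an adjusted p. The depth limits these statements: the standard errors ran from 0.16 to 0.61 on the log2 scale, and the 95% interval stayed between -1 and 1 for 12 of the 21 members.

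Before adjustment, 2 members had a p under 0.05 in edgeR and 0 in DESeq2, and both were H4 genes. Hist2h4 had 4 and 5 counts in untreated, 15 and 14 in auxin 6 h and 4 and 5 in wild-type libraries, so the auxin libraries stood above the other 4. The log2 fold change of Hist2h4 with auxin was 1.56 (SE 0.50, 95% interval 0.49 to 2.63, adjusted p = 0.0979 in edgeR), the upper end of the range given above. Hist2h4 passed the filter on low counts only through the auxin libraries, in which it was high, so these values are no support for a rise. Hist1h4i had 139 and 131 counts untreated and 102 and 107 with auxin, with a log2 fold change of -0.47 (SE 0.16, 95% interval -0.82 to -0.12, adjusted p = 0.121 in edgeR). Neither passed the adjustment over all genes.

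The best measured member of each other class gave intervals that include 0. The linker histone gene Hist1h1c had 111 and 98 counts untreated and 110 and 102 with auxin, a log2 fold change of -0.08 with an interval of -0.46 to 0.29. The H3 gene Hist1h3c had 50 and 58 counts untreated and 78 and 61 with auxin, a log2 fold change of 0.26 with an interval of -0.23 to 0.74. The H2A gene Hist1h2ae had 51 and 63 counts untreated and 50 and 50 with auxin, a log2 fold change of -0.29 with an interval of -0.79 to 0.21. The H2B genes Hist3h2ba and Hist1h2bc had log2 fold changes of 0.03 (-0.56 to 0.63) and -0.21 (-0.76 to 0.33). The second members by level, Hist1h1a, Hist1h3h and Hist1h4k, had log2 fold changes of 0.08, 0.06 and -0.06 with standard errors of 0.43, 0.34 and 0.45. Hist1h2ao, with 4 and 7 counts untreated and 3 and 2 with auxin, had too few counts to be tested.

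The mRNA of the tagged subunit itself was higher with auxin. Polr2a had 6623 and 6568 counts untreated, 10396 and 10663 with auxin, and 6866 and 7129 in wild type. Its log2 fold change was 0.57 (SE 0.07, adjusted p = 0.00117 in edgeR) with auxin and 0.10 (SE 0.06, adjusted p = 0.172) in wild type against untreated. Without auxin 6 h replicate 2 the adjusted p of the first was 0.0515, and with mitochondrial mRNAs as the scale 0.279. Degradation acts on the RPB1 protein, so the mRNA does not check it.

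**Figure D3:**
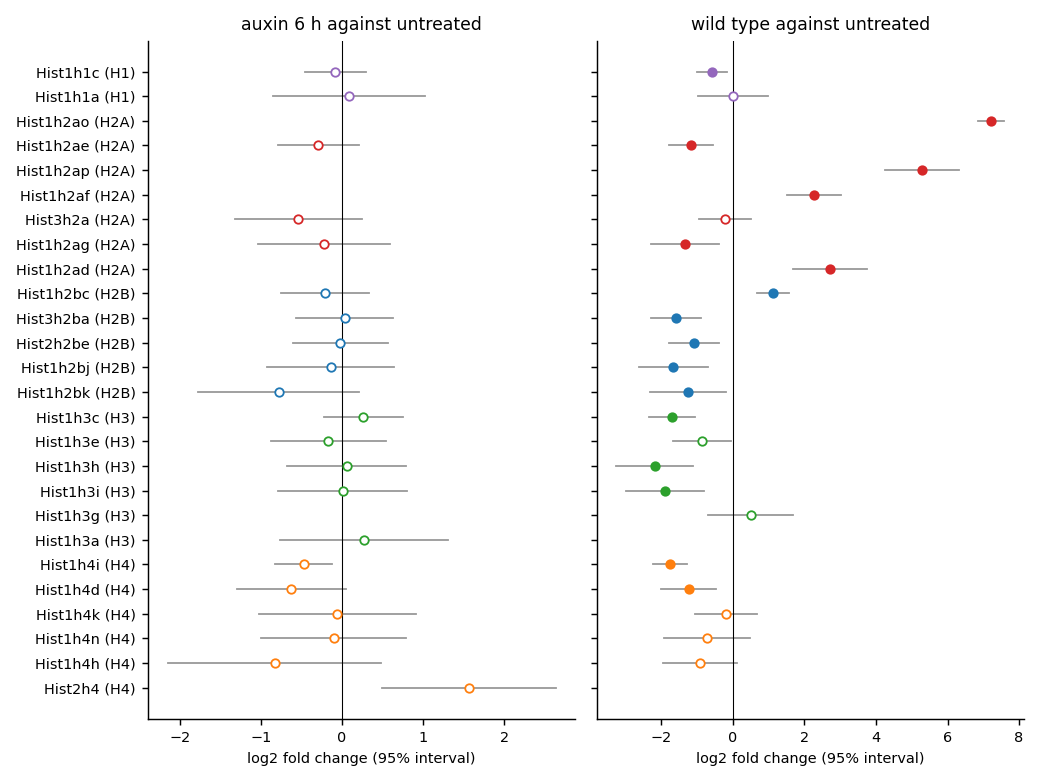
Log2 fold change with its 95% interval for each tested histone gene, in auxin 6 h against untreated (left) and wild type against untreated (right), coloured by class, with filled points for an adjusted p under 0.05. No point is filled on the left, whereas 17 of 24 are filled on the right, 5 above 0 and 12 below.

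In wild-type cells a few H2A genes, led by Hist1h2ao, stood far above their level in the untreated tagged cells, while the called members of H1, H3 and H4 and most of those of H2B stood lower. Of 24 members tested, 17 were called: 12 (50%) were lower and 5 (20.8%) higher in wild type, beside 30.7% lower and 29.9% higher among 15778 genes tested (60.6% called in either direction). The median log2 fold change was -0.89, against -0.0096 over all genes tested. Lower members were found in every class, 1 of 2 tested in H1, 2 of 7 in H2A, 4 of 5 in H2B, 3 of 5 in H3 and 2 of 5 in H4, while the higher members were 4 H2A genes and 1 H2B gene. Members with few counts passed the filter only through the group in which they were high. Of the 11 members with at least 10 counts in all 4 libraries, a fit on such genes alone called 9, 8 lower and 1 higher. Among these was Hist1h3e, which the fit on all genes tested did not call. The share of all genes called in that fit was not counted, so these counts have no background of their own. The wild-type libraries were deposited in a table of their own, so genotype, clonal history, doxycycline and library preparation cannot be told apart in this comparison.

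Among linker histones, Hist1h1c fell from 111 and 98 counts in untreated to 64 and 74 in wild-type libraries (log2 fold change -0.59, SE 0.19, adjusted p = 0.0209 in edgeR). Hist1h1a had 13 and 9 counts in both groups. The other 4 H1 genes had 0 to 14 counts in these libraries and were not tested.

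The H3 and H4 genes, which encode the core of the nucleosome, moved downward in every case that was called. Hist1h4i fell from 139 and 131 to 47 and 32 counts, a log2 fold change of -1.76 (SE 0.22, adjusted p = 3.68e-05), and Hist1h4d from 36 and 33 to 18 and 11 (-1.23, SE 0.34). Hist1h3c fell from 50 and 58 to 18 and 15 counts (-1.69, SE 0.29, adjusted p = 0.000395). Hist1h3h fell from 17 and 25 to 6 and 3 (-2.18, SE 0.49) and Hist1h3i from 14 and 24 to 6 and 4 (-1.89, SE 0.49). These 5 genes were named because they were called, where 30.7% of all genes tested were called lower. Hist1h3h and Hist1h3i passed the filter on low counts only through the untreated libraries, in which they were high. Their values are therefore no support for a fall. The other tested H3 and H4 members, Hist1h3e, Hist1h3g, Hist1h4h, Hist1h4k and Hist1h4n, had log2 fold changes of -0.86, 0.50, -0.92, -0.19 and -0.72 that did not pass.

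Of the H2B genes, 4 fell and 1 rose in wild type. Hist3h2ba fell from 39 and 52 counts to 16 and 14 (log2 fold change -1.58, SE 0.32, adjusted p = 0.00114). Hist2h2be fell from 37 and 31 to 16 and 16 (-1.07), Hist1h2bj from 24 and 18 to 8 and 5 (-1.66) and Hist1h2bk from 11 and 18 to 5 and 7 (-1.24). Hist1h2bj and Hist1h2bk passed the filter on low counts only through the untreated libraries, so their values are no support for a fall. The H2B gene that rose, Hist1h2bc, had 43 and 51 counts untreated, 39 and 48 with auxin and 105 and 98 in wild type, a log2 fold change of 1.12 (SE 0.21, adjusted p = 0.000651). It is annotated with 2 exon blocks, and the stem-loop letters were not found in its transcript. With mitochondrial mRNAs as the scale, which moved the median of all genes by -2.10, its log2 fold change was -0.96, still above that median.

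The H2A genes held the largest rises. Hist1h2ao (chr13:21810465-21810944, plus strand, 1 exon) had 4 and 7 counts untreated, 3 and 2 with auxin and 810 and 855 in wild type. Its log2 fold change was 7.22 (adjusted p = 1.7e-10 in edgeR), and no standard error is given because the untreated counts are few. As a ratio of summed CPM the rise was 147-fold, with an exact counting interval of 81.7 to 294. Hist1h2ap (chr13:21833026-21833507, minus strand) had 1 and 2 counts untreated, 1 and 0 with auxin and 70 and 56 in wild type, a ratio of 40.7 with a counting interval of 13.6 to 200. The transcripts of this pair share most of their sequence: 92.7% of the 100-base stretches of Hist1h2ao also occur in Hist1h2ap. Hist1h2ad rose from 6 and 3 to 24 and 36 counts (log2 fold change 2.71, SE 0.47) and Hist1h2af from 10 and 8 to 47 and 40 (2.27, SE 0.34).

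Of the other tested H2A genes, 2 fell. Hist1h2ae fell from 51 and 63 to 29 and 21 counts (log2 fold change -1.17, SE 0.28, adjusted p = 0.00361) and Hist1h2ag from 15 and 21 to 6 and 8 (-1.34, SE 0.43, adjusted p = 0.0197). Hist3h2a, with 21 and 21 counts untreated and 17 and 19 in wild type, had a log2 fold change of -0.21 that did not pass. Hist1h2ag lost the call in DESeq2 (adjusted p = 0.197) and passed the filter on low counts only through the untreated libraries. It shares 68.1% of its stretches with Hist1h2ao, and the part of shared sequence in its counts was not tested. The 13 other H2A genes had too few counts to be tested, among them Hist1h2ac with 0 and 0 counts untreated, 2 and 2 with auxin and 5 and 5 in wild type, which was called higher when no filter on low counts was used.

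Shared sequence was set beside the calls, where the median over all members was 34.3%. In the 5 higher members the share of 100-base stretches found in another gene was 92.7% for Hist1h2ao, 92.2% for Hist1h2ap, 79.3% for Hist1h2af, 63.6% for Hist1h2ad and 25.4% for Hist1h2bc. In lower members it reached 92.0% for Hist1h3h, 76.2% for Hist1h2ag, 70.8% for Hist1h2bk and 68.6% for Hist1h3i. Of the 5 tested members sharing under 10%, 4 were called and all 4, Hist1h1c, Hist3h2ba, Hist2h2be and Hist1h4d, were lower, with a median of -1.07 over the 5. Of 9 tested members sharing from 10% to under 50%, 1 was higher and 4 lower, and of 10 sharing more, 4 were higher and 4 lower. Among all genes tested, 29.9% were higher and 30.7% lower. The 4 H2A genes that were higher passed the filter on low counts only through the wild-type libraries. The lower members Hist1h2ag, Hist1h2bj, Hist1h2bk, Hist1h3h and Hist1h3i passed it only through the untreated libraries. These counts by shared sequence therefore depend on the filter. The part of shared sequence in these values was not tested.

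**Figure D4:**
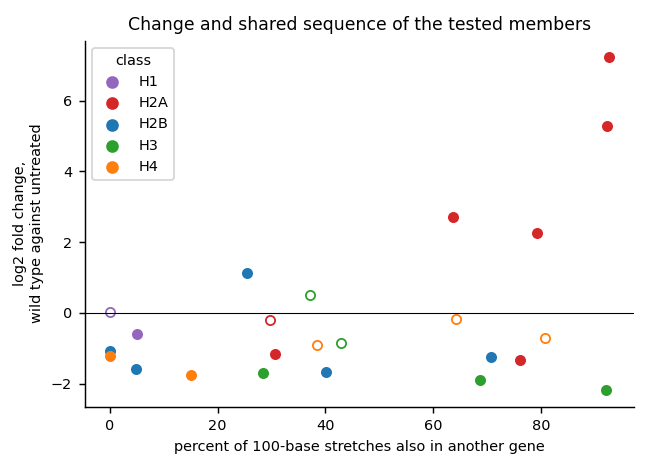
Log2 fold change in wild type against untreated for the 24 tested histone genes, by the percent of their 100-base stretches that also occur in another gene, coloured by class and filled for an adjusted p under 0.05. Called members under 10% lie below 0, and the 4 H2A genes that rose lie at 63.6% and above. The lower genes Hist1h3h, Hist1h2ag, Hist1h2bk and Hist1h3i also lie above 63.6%. The 4 H2A genes that rose passed the filter on low counts only through the wild-type libraries.

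Of the 17 calls, 10 held in DESeq2 and with any 1 library left out. The other 7, Hist1h1c, Hist1h2ag, Hist1h2bj, Hist1h2bk, Hist1h3i, Hist1h4d and Hist2h2be, lost the call in DESeq2 (adjusted p from 0.0728 to 0.289) and with at least 1 library left out in edgeR (adjusted p from 0.0565 to 0.279), always keeping their direction.

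Promoters of the members carried known elements by class. RefSeq promoters of 300 bases on GRCm38.p6 were matched for 61 members, and 4 sets of letters were searched on both strands. The TATA element TATAAA was found in 57.4% of member promoters against 14.2% of all 27025 promoters, and CCAAT in 85.2% against 37.9%. CCAAT stood in every H1, H2A, H2B and H3 promoter but in 3 of 12 H4 promoters. The octamer ATTTGCAT stood in 7 of 17 H2A and 6 of 16 H2B promoters and in none of the other classes, against 1.75% of all promoters. GGTCCG, part of the H4 element bound by HINFP, stood in 11 of 12 H4 promoters against 8.39% of all. These are matches of letters and not shown to be bound sites.

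The 150 bases before the RefSeq start are shown for 3 members that differed between wild-type and untreated cells, 1 higher and 2 lower, with any of the 4 elements on either strand in capitals. Hist1h2ao is read at chr13:21810217-21810366 (plus strand), Hist1h3h at chr13:21717478-21717627 (plus strand) and Hist1h4i at chr13:22041363-22041512 (minus strand). The GENCODE transcripts begin 98, 31 and 0 bases further on.
Hist1h2ao: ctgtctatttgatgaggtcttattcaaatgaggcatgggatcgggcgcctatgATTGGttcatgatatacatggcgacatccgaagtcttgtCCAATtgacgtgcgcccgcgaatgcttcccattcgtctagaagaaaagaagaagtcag
Hist1h3h: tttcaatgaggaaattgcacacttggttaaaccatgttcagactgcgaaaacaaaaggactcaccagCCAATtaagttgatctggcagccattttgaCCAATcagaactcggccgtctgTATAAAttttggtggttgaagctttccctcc
Hist1h4i: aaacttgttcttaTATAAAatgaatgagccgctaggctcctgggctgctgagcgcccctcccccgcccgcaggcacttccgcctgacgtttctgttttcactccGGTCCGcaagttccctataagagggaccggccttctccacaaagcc
CCAAT occurs 2 times in the windows of Hist1h2ao and Hist1h3h and not in that of Hist1h4i, which holds GGTCCG. The windows of Hist1h3h and Hist1h4i each hold TATAAA 1 time.

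Variant histones, most of which are made from polyadenylated mRNAs throughout the cell cycle, were compared as 1 list of 18 genes. With auxin, 0 of 12 tested were called, beside 4.2% of all genes tested, with a median log2 fold change of 0.0046. H3f3b had 11083 and 11161 counts untreated and 12062 and 11424 with auxin, and H2afz 4731 and 5530 untreated and 5503 and 5417 with auxin, so the groups overlapped for H2afz. The log2 fold changes of H3f3a, H3f3b, H2afz and H2afx with auxin were 0.02, -0.03, -0.01 and -0.14, each with a standard error under 0.1.

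In wild type, 6 variant genes were higher and 5 lower than in untreated cells, of 12 tested, beside 29.9% higher and 30.7% lower among all genes tested. H2afx, the variant phosphorylated at DNA breaks, had 2348 and 2608 counts untreated, 2416 and 2429 with auxin and 7759 and 7889 in wild type, a log2 fold change of 1.67 (SE 0.06, adjusted p = 4.13e-09). Cenpa, the centromeric H3, rose by 1.14 on the log2 scale, H2afy by 0.71 and H2afz by 0.44. H1f0, the linker histone of resting cells, fell from 2296 and 2006 to 702 and 688 counts (-1.62), H2afj by 0.63, and the H3.3 genes H3f3b and H3f3a by 0.30 and 0.20. Both H3.3 genes lost the call when either wild-type library was left out (adjusted p from 0.0721 to 0.218), and H3f3a also in DESeq2 (0.0643) and with no filter (0.0518).

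The genes that transcribe and process histone mRNAs were taken as a list of 23. With auxin, 1 of 22 tested (4.55%) rose and 0 fell, with a median of -0.07, beside 2.56% higher and 1.64% lower among all genes tested. The gene that rose was Slbp, the stem-loop binding protein, with 762 and 849 counts untreated, 1227 and 1226 with auxin and 1534 and 1536 in wild type. Its log2 fold change with auxin was 0.50 (SE 0.08, adjusted p = 0.00366 in edgeR), and both auxin libraries stood above both untreated libraries. With no filter on low counts the adjusted p was 0.0645, and with mitochondrial mRNAs as the scale 0.493. Npat, the transcriptional coactivator, had a log2 fold change of 0.04 (SE 0.08) with auxin.

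In wild type, 16 of these 22 genes (72.7%) were higher and 1 (4.55%) was lower, with a median of 0.41, beside 29.9% higher and 30.7% lower among all genes tested. Slbp rose by 0.94 and Npat by 0.42 on the log2 scale. Among the others, Zfp473, a zinc finger protein of the U7 complex, rose by 1.47, the cyclin gene Ccne1 by 1.22, Casp8ap2 (FLASH) by 0.96, Ncbp2, a subunit of the cap-binding complex, by 0.82, and Upf1, which acts in histone mRNA decay, by 0.77. With mitochondrial mRNAs as the scale all of these turned below 0, from -0.63 for Zfp473 to -1.68 for Npat, and stood above the shifted median of all genes. The gene for the U7 RNA itself, Rnu7, which has no polyA tail, was at 0 in all 6 libraries.

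Few histone chaperone and S phase genes were called with auxin. The lower genes were 10% of the chaperone and 9.52% of the S phase genes tested, beside 1.64% lower and 2.56% higher among all genes tested. Of 20 chaperone genes tested, 2 fell and 0 rose (median -0.09): Hjurp, the chaperone of CENP-A, by 0.34 (adjusted p = 0.0129 in edgeR) and Chaf1a, a subunit of the CAF-1 assembly factor, by 0.30 (adjusted p = 0.0367). Of 21 S phase genes, 2 fell and 0 rose (median -0.12): the replication licensing factor Cdt1 by 0.37 (adjusted p = 0.0216) and Rrm2, a subunit of ribonucleotide reductase, by 0.34 (adjusted p = 0.0251). All 4 lost the call when either auxin library was left out, with adjusted p from 0.131 to 0.288, and with no filter on low counts, with adjusted p from 0.0703 to 0.127. They also lost it with mitochondrial mRNAs as the scale (0.155 to 0.314), and Chaf1a and Rrm2 in DESeq2 (0.176 and 0.0784).

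In wild type, more genes of both lists were higher than lower, where 29.9% of all genes tested were higher and 30.7% lower. Of 20 chaperone genes, 12 (60%) were higher and 2 (10%) lower (median 0.24), with Hat1, which acetylates new H4, up by 1.10 on the log2 scale, the H1 and H3-H4 chaperone Nasp by 0.96, and Anp32e by 0.86. Of 21 S phase genes, 15 (71.4%) were higher and 0 lower (median 0.69), with Rrm2 at 1176 and 1327 counts untreated and 4738 and 4674 in wild type (1.92), Cdc6 up by 1.12 and Mcm6 by 0.99. The histone genes themselves had a median of -0.89 in the same comparison, with 12 lower and 5 higher. With mitochondrial mRNAs as the scale, Hat1, Nasp, Cdc6 and Mcm6 stood at -0.99, -1.14, -0.97 and -1.10.

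**Figure D5:**
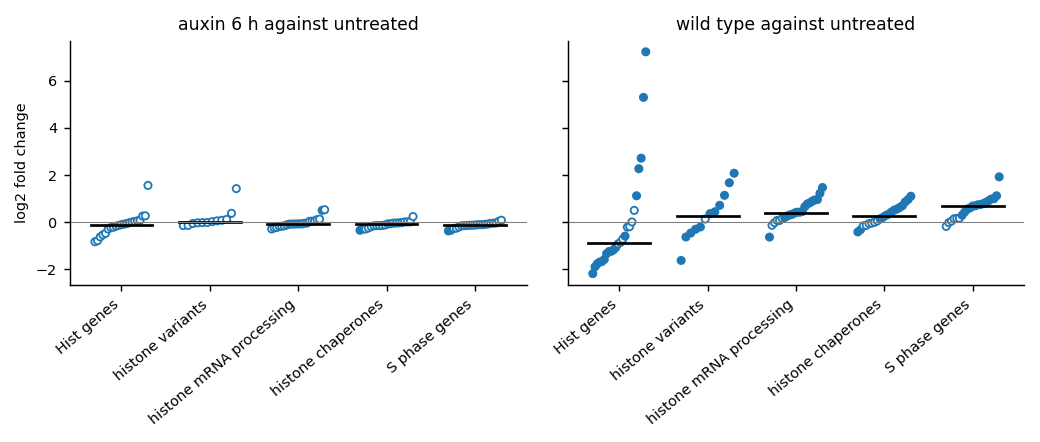
Log2 fold change of each tested gene of the histone set and of 4 related lists, in auxin 6 h against untreated (left) and wild type against untreated (right), with filled points for an adjusted p under 0.05 and a line at the median of each list. In wild type the histone set has its median at -0.89 and the other lists theirs at 0.24 to 0.69.

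Markers of the labelled cell type were present in all libraries, with at least 1674 counts for each of 10 pluripotency genes. All 10 were tested, with 4 (40%) lower and 0 higher with auxin and 7 (70%) higher and 1 (10%) lower in wild type. For this and the counts that follow, the shares among all genes tested were 1.64% lower and 2.56% higher with auxin. In wild type they were 29.9% higher and 30.7% lower. The extraction text of the wild-type records names retina, and 10 retina genes together held 100 and 117 counts in untreated, 113 and 133 in auxin 6 h and 116 and 115 in wild-type libraries. The photoreceptor genes Rcvrn and Crx were at 0 in all 6 libraries. With auxin 0 of 3 tested retina genes were called, and in wild type Rlbp1 was higher (62 and 50 counts untreated, 93 and 91 in wild type) and Pde6a lower (17 and 39 untreated, 10 and 3 in wild type), of 2 tested. Feeder fibroblast genes were detectable, with Col1a1 between 915 and 1380 counts and Lum and Dcn at 0 to 4, and 1 of 8 tested was higher with auxin while 2 were higher and 4 lower in wild type. All 13 mitochondrial mRNAs were higher in wild type (median log2 fold change 2.24), and 3 of 12 with auxin. The part of these differences in the histone values was not tested.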

How the data were processed

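The authors isolated RNA with TRIzol, sequenced polyA libraries with paired 150-base reads, aligned them to mm10 with HISAT2 2.1.0 and counted them per GENCODE gene with Salmon and htseq-count; the annotation release, the strand setting and the treatment of reads with several matches are not given in the sources used here. They deposited whole-number counts, not normalized, in 2 tables. Columns with the authors' own DESeq2 fold changes and p-values were not used, nor were 2 columns of per-sample values that matched no sample label. No spike-in is named.

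Counts were tested with edgeR 4.0.16 (limma 3.58.1, R 4.3.3): filterByExpr with a minimum count of 10, TMM scaling, quasi-likelihood test, Benjamini-Hochberg adjustment over all genes tested, and a threshold of 0.05. Each comparison was fitted on its own 4 libraries. DESeq2 1.42.0, other scalings and filters, a replicate block and leaving out each library were run as alternatives. Library totals were 14094022 to 15358714 counts. Intervals of shares and count ratios cover counting error only. Standard errors of log2 fold changes were taken as the absolute log2 fold change over the square root of edgeR's F statistic. The intervals of log2 fold changes follow from these standard errors and include the spread between libraries. Both are approximate and can be too narrow for members with few counts in 1 group, such as Hist1h2ao. Replicate libraries differed beyond sampling noise and were counted as 2 samples.

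Annotation and sequences came from GENCODE M21 (62 members matched by gene ID, 7 by symbol, 1 not matched) and RefSeq promoters. Stretches of 100 bases were compared between transcripts of all genes on both strands.

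The members and lists were chosen with earlier results of these data known. Named were all members called, up to 20 for each comparison, the 2 members of each class with the most counts per kb, members at 0 by count, up to 6 called genes of each list by smallest p, and Slbp, Npat, H2afx, H3f3a, H3f3b, H2afz and Polr2a. Other members printed were chosen after their values were seen. The lists were histone variants, histone mRNA processing, histone chaperones, S phase genes, pluripotency, feeder fibroblast and retina markers, and mitochondrial mRNAs.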

Additional observations from a re-analysis of the deposited data

How the results depend on the processing

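The count of 0 called histone genes with auxin held under every alternative run, and leaving out any library gave 0 to 0. In wild type, 17 members were called, 5 higher and 12 lower. The count was 9 (1 higher) with at least 10 counts in every library, where 11 were tested, 10 in DESeq2 (5 lower), and 4 (0 higher, 4 lower) among members sharing under 10%, which leaves 5 tested. With mitochondrial mRNAs as the scale, which moved the median of all genes by -0.17 (auxin) and -2.10 (wild type), 2 were higher and 20 lower. With that shift in wild type most genes tested lie below 0, so these counts are no result about histone genes. For the alternatives in this paragraph, the shares called among all genes were not counted. Leaving out a library gave 13 to 14 calls, 5 to 6 higher and 7 to 9 lower, the lowest without wild-type replicate 2.

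For class sums, in log2 ratios against untreated, the mitochondrial scale gave -0.33 (H1), -0.43 (H2A), -0.23 (H2B) and -0.45 (H4) with auxin, and -2.64 (H1), 0.75 (H2A), -2.29 (H2B), -3.11 (H3) and -3.34 (H4) in wild type. Leaving out the member with the most counts gave -0.41 (H1) and -0.055 (H4) with auxin, and 0.55 (H2A), -1.13 (H2B), -0.80 (H3) and -0.81 (H4) in wild type. Members sharing under 10% gave 0.050 (H2B) and 0.019 (H4) with auxin and -1.30 (H2B) and -0.81 (H4) in wild type, and H3 has no such member. Leaving out a library gave ranges with auxin of -0.25 to -0.02 (H1), -0.31 to -0.19 (H2A), -0.10 to -0.0027 (H2B), -0.0038 to 0.24 (H3) and -0.36 to -0.18 (H4), and in wild type of -0.70 to -0.47 (H1), 2.73 to 2.84 (H2A), -0.32 to -0.18 (H2B), -1.18 to -0.97 (H3) and -1.57 to -1.06 (H4).

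The same mitochondrial scale turned the sign in wild type for Hist1h2bc (-0.96), Hist1h1a (-2.06), H2afx (-0.42), Cenpa (-0.95), H2afy (-1.38), H2afz (-1.65), Zfp473 (-0.63), Ccne1 (-0.86), Casp8ap2 (-1.14), Slbp (-1.15), Upf1 (-1.32), Ncbp2 (-1.27), Nasp (-1.14), Anp32e (-1.23), Hat1 (-0.99), Supt16 (-1.39), Rbbp4 (-1.47), Chaf1a (-1.54), Rrm2 (-0.17), Mcm6 (-1.10), Ccna2 (-1.19), Cdc6 (-0.97), Rrm1 (-1.25), Mcm4 (-1.30), Npat (-1.68) and Polr2a (-2.003). In each, the change under TMM was smaller than that shift. Hist1h2ad (0.65) and Hist1h2af (0.19) lost the call under it.

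Same-numbered libraries did not deviate together (r = 0.0464 for auxin with untreated and -0.0215 for wild type with untreated over 14171 genes), so the replicate block is a check only: with it 0 members were called with auxin and 17 in wild type, the same 17 genes.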
